A study of Homo sapiens with 5 samples.

Results

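Broad 2-4 kb SNS-seq peaks were defined as autosomal peaks of the 2-4 kb short nascent strand list that span at least 5000 bp. They were selected on the width of the peak call itself, and 1830 peaks met the rule, of 181905 on the autosomes and 184966 in the whole list. All data come from EJ30, a human bladder carcinoma cell line. SNS-seq was run on nascent strands from 2 gel fractions, 0.5-2 kb and 2-4 kb, and peaks of both were called against the same EJ30 genomic DNA, whose library was not analysed here. Ini-seq 2 was run on late G1 nuclei from mimosine-arrested EJ30 cells, in which replication was started in vitro with HeLa cytosolic extract and Br-dUTP for 3 hours or 15 minutes. Origins called at 3 hours carry an efficiency, the HL share of reads, where HL is replicated heavy-light DNA and LL is unreplicated light-light DNA. Each condition is a single list of positions, without counts or replicate columns, so no difference below has a replicate error or a test. Intervals given for shares (95%, Clopper-Pearson) and medians cover counting error only. The lists hold no expression values, so the identity of the cells was not tested.

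Replication in human cells starts at many sites, each used in only a fraction of cell cycles, and most of the efficient ones lie at GC-rich promoters in early replicating chromatin. SNS-seq reads short strands that remain near the site where they began, whereas ini-seq 2 reads DNA that was replicated in isolated nuclei. A wide SNS-seq call may hold a single long signal or several neighbouring sites that the caller did not separate. G-quadruplex (G4) motifs, runs of G that can fold into a stacked structure, are known to lie near many human origins.

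The broad peaks were long GC-rich stretches, nearly all with G4 motifs, which 4 of them illustrate. The peaks were the one holding the 3-hour origin of highest efficiency, the widest peak with at least 5 origins at 3 hours and none at 15 minutes, the widest peak with no ini-seq 2 origin, and the widest with no annotated gene. Each sequence is the window of 200 bases with the most bases in G4 motifs, outside untranslated exons and, where the peak has a 3-hour origin, inside its most efficient one. Positions are on hg38, the strand printed is the one with the G runs, and capitals mark the G4 motif (4 tracts of 3 or more G joined by loops that are 1 to 7 bases long, searched on both strands).
Intergenic, beside the start of GRID1, chr10:86366801-86367000, minus strand: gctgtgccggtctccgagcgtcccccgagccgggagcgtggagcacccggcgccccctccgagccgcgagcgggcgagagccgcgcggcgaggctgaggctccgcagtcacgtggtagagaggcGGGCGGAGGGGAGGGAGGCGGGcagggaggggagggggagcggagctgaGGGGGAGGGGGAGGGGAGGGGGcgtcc
BRSK2 intron, chr11:1458871-1459070, minus strand: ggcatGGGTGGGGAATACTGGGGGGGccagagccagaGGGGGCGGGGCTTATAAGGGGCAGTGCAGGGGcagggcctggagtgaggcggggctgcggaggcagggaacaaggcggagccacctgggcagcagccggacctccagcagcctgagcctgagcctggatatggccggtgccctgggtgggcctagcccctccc
Intergenic, in the peak over SOX8, chr16:989859-990058, plus strand: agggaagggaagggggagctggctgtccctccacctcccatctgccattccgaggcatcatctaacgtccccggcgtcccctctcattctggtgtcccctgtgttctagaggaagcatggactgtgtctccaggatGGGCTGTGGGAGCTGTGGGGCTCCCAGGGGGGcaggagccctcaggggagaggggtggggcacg
Intergenic, in the widest peak without a gene, chr16:1131301-1131500, minus strand: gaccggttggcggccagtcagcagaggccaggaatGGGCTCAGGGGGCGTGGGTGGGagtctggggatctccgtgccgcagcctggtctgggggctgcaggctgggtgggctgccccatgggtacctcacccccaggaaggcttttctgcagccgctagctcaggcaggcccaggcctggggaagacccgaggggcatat
The window beside GRID1 had a GC content of 79.0% and 24 CpG dinucleotides, against 65.0% to 71.5% and 5 to 7 in the other three. Motifs of this kind were not particular to these windows. Cut into consecutive windows of 200 bp, 22.6% of 66512 windows in broad peaks held a motif, compared with 18.3% of 81023 windows in peaks of 2-3 kb and 15.6% of 529340 windows over all autosomal peaks of at least 200 bp. Over whole peaks the density was 1.49 motifs per kb in broad peaks and 1.19 per kb in peaks of 2-3 kb, and 1829 of the 1830 broad peaks held at least 1, as did 89.0% of peaks of 2-3 kb, 98.1% of peaks of 4-5 kb and 25.9% of all autosomal peaks.

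The broad peaks made up 1.01% of autosomal 2-4 kb peaks but 10.8% of their bases, 13.5 Mb in all or 0.469% of the autosomes. Their median width was 6384.5 bp, with quartiles of 5535 and 8078.5 bp, and 230 reached 10 kb. The distribution had no gap at the threshold. The members of least width measured 5000, 5004 and 5005 bp, and the 3 widest peaks left out all measured 4999 bp. The peak of 5005 bp spans the start of RBPMS2, an RNA-binding protein gene, and held 1 origin of efficiency 0.946. The peaks of 5000 and 5004 bp contained no gene start, and each held 2 origins of lower efficiency than that. Of the 3 peaks of 4999 bp, 2 lay outside genes and held no origin. The third, in DNM2, held 1 of efficiency 0.825.

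Broad peaks were spread unevenly over the genome. Chromosome 19, the most gene-dense human chromosome, held the most with 202 (3.45 per Mb), and chromosome 13 the fewest with 9 (0.0787 per Mb). Per Mb, chromosomes 17 (1.89), 22 (1.65), 16 (1.61), 20 (1.38) and 11 (1.25) followed chromosome 19. As a share of a chromosome's own peaks the order differed, since chromosomes 11 (1.69%), 16 (1.56%) and 8 (1.53%) stood above chromosome 19 (1.35%). Of the broad peaks, 10.7% lay within 1 Mb of a chromosome end, compared with 6.26% of peaks of 2-3 kb and 4.63% of all peaks. Among broad peaks of at least 10 kb the share was 15.7%. The median distance from a broad peak to the next on its chromosome was 60590.5 bp, and 425 of 1808 neighbouring pairs lay within 10 kb of each other, 149 of them within 1 kb. The nearest pairs are thus separate calls of nearly continuous regions.

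Every broad peak overlapped at least 1 peak of the 0.5-2 kb fraction, against 38.9% of all autosomal 2-4 kb peaks. The share was already 97.6% in peaks of 2-3 kb and 99.9% in peaks of 4-5 kb, so this was shared with other wide peaks. The lists of both fractions were called against the same genomic DNA and are not independent. The median number of 0.5-2 kb peaks in a broad peak was 4, rising from 3 in broad peaks of 5-6 kb to 8 in those of 10 kb or more, with a maximum of 22 at AKT1. Per kb the number was not higher, at 0.629 in broad peaks and 0.675 in peaks of 2-3 kb. The small-fraction peaks were longer than those over all narrower 2-4 kb peaks, most of which are under 500 bp wide. The 8479 that met a broad peak had a median width of 552 bp, compared with 331 bp for those over narrower 2-4 kb peaks and 229 bp for those over none. All 98 autosomal 0.5-2 kb peaks of 5000 bp or more lay in broad peaks, with a longest of 13776 bp. Together the small-fraction peaks covered 64.3% of the bases of broad peaks, against 58.3% to 59.3% in peaks of 2-5 kb. Coverage rose with width, from 59.0% in broad peaks of 5-6 kb to 73.5% in those of 10 kb or more. Single broad peaks ranged from 12.3% to 99.7% covered, 1412 were covered over at least 50% of their length, and 72 met a single 0.5-2 kb peak.

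Of the 1830 broad peaks, 1687 (92.2%, interval 90.9 to 93.4) overlapped an ini-seq 2 origin called at 3 hours, against 11.9% of all autosomal 2-4 kb peaks. The share rose with width over the whole list, from 71.7% in peaks of 2-3 kb to 81.4% at 3-4 kb and 85.1% at 4-5 kb, and all 230 broad peaks of at least 10 kb had an origin. A wider interval has more room to meet an origin. In the central 1 kb, where the room is equal, 65.9% of broad peaks met a 3-hour origin, compared with 68.6% of peaks of 2-3 kb and 74.0% of peaks of 3-4 kb. The centres of broad peaks were thus no more often origins than those of narrower wide peaks. Broad peaks more often held several origins. A single 3-hour origin was found in 865 broad peaks, 2 in 561, 3 in 186 and 4 in 56, with a maximum of 9, so that 822 (44.9%) held at least 2, against 1.82% of peaks of 2-3 kb and 15.1% of peaks of 4-5 kb. Per kb, however, the number of origins was lower, 0.213 in broad peaks and 0.299 in peaks of 2-3 kb, while the bases covered by origins were more, 39.0% against 29.8%.

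**Figure D1:**
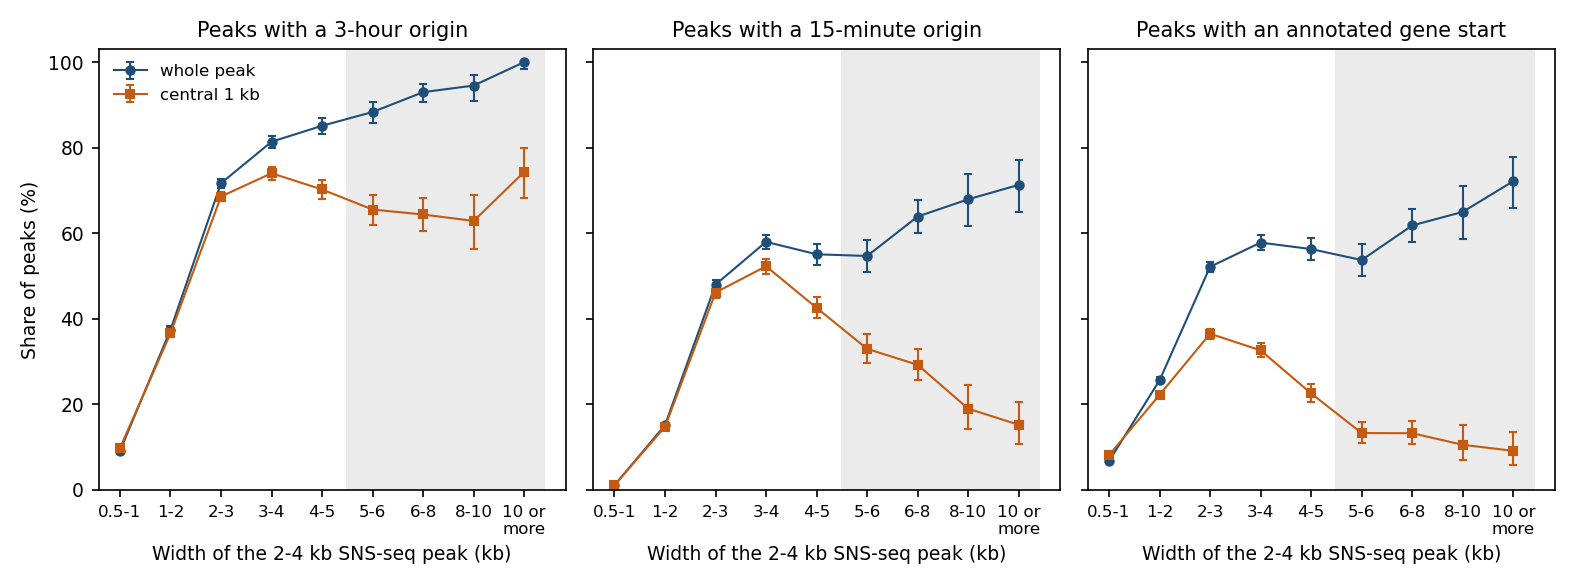
Share of 2-4 kb SNS-seq peaks (vertical axis, %) that overlap a 3-hour origin, a 15-minute origin or an annotated gene start, by peak width in kb (horizontal axis). Circles count the whole peak, squares its central 1 kb, bars are 95% Clopper-Pearson intervals, and the grey area holds the broad peaks, where whole-peak shares rise (3-hour origins from 88.3% to 100%) while the share with a 15-minute origin in the central 1 kb falls from 33.0% to 15.2%.

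Origins called after the shorter reaction of 15 minutes gave a different picture at the centres. Of the broad peaks, 61.6% (interval 59.4 to 63.9) overlapped a 15-minute origin, against 5.41% of all autosomal 2-4 kb peaks, 48.0% of peaks of 2-3 kb and 58.0% of peaks of 3-4 kb. In the central 1 kb the order turned, with 27.7% of broad peaks, 46.1% of peaks of 2-3 kb and 52.3% of peaks of 3-4 kb. Peaks of 4-5 kb lay between, at 42.6%, so the share fell with width from 3-4 kb on. Both times were found in 1109 broad peaks, the 3-hour list alone in 578, the 15-minute list alone in 19 and neither in 124. The 15-minute values are a Z-score over that list and cannot be set beside the 3-hour efficiency. The 1446 origins in broad peaks had a median Z-score of -0.129 (interval -0.187 to -0.00983) and the 8495 over narrower peaks 0.0459 (interval 0.0167 to 0.0803). Of the former, 94.9% were also called at 3 hours, close to the 95.6% of the latter.

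The regions around broad peaks also differed from those around peaks of 2-3 kb, the only narrower set profiled here. At 5-6 kb from the centre, beyond the ends of all but the 230 broad peaks of at least 10 kb, 3-hour origins covered 15.0% of bases around broad peaks and 4.94% around peaks of 2-3 kb. The 0.5-2 kb peaks covered 28.0% and 11.7%, and GC content was 55.8% and 48.5%. At 14-15 kb the gap remained, with origin coverages of 12.7% and 4.76% and GC contents of 54.6% and 48.1%. At the centre itself (within 0.5 kb) the coverage by 3-hour origins was close, 46.2% in broad peaks and 47.9% in peaks of 2-3 kb, whereas 15-minute origins covered 15.3% and 26.9%. Annotated coding gene starts were 84.7 per Mb at the centre of broad peaks and 329 per Mb at the centre of peaks of 2-3 kb.

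**Figure D2:**
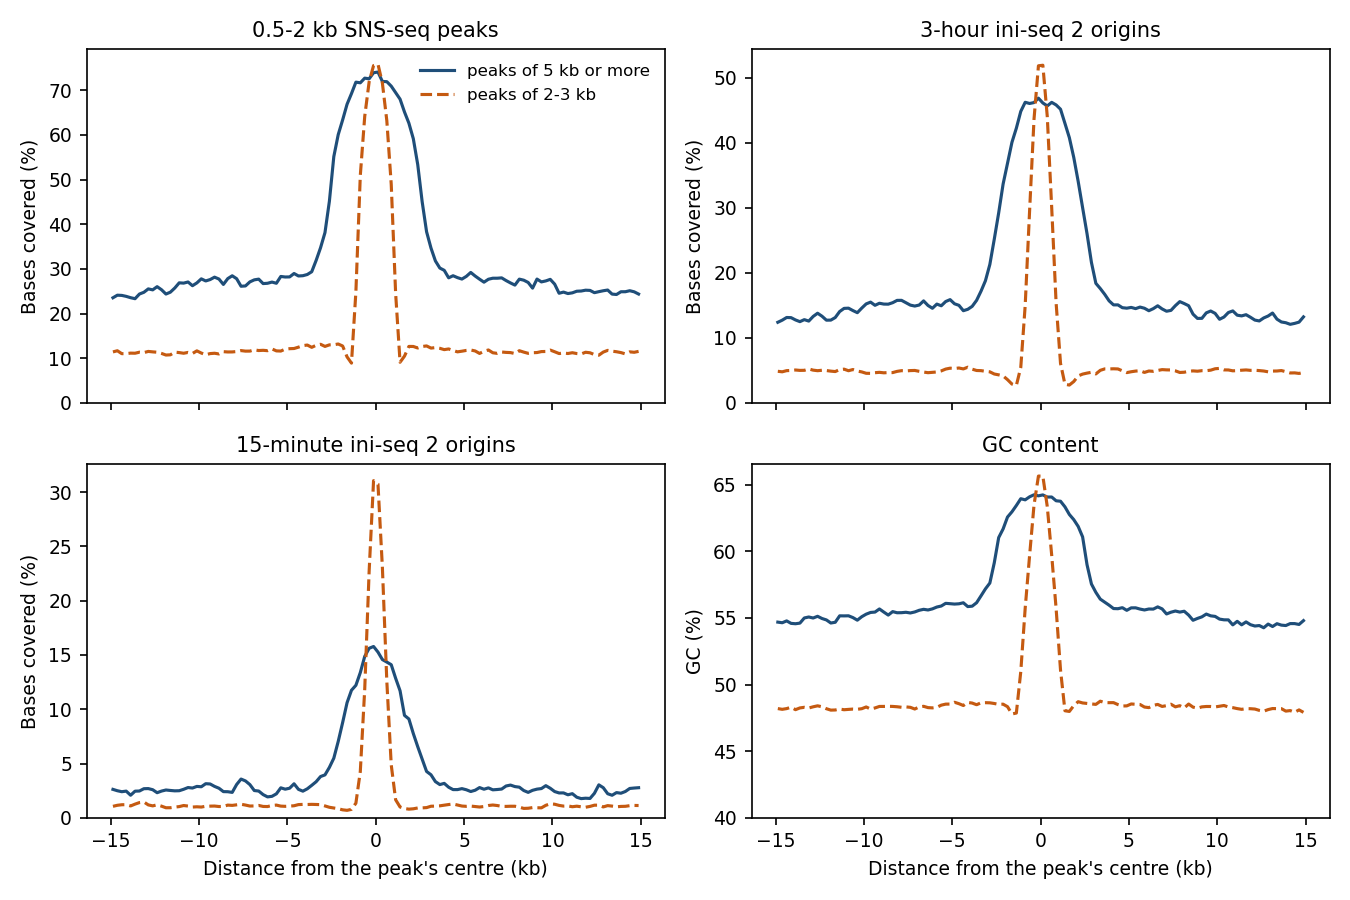
Mean profile around the centre of 2-4 kb SNS-seq peaks, by distance from the centre in kb (horizontal axis): bases covered by 0.5-2 kb peaks, 3-hour origins and 15-minute origins (%) and GC content (%, axis from 40). The solid line is the 1830 broad peaks and the dashed line the 6868 peaks of 2-3 kb. The solid lines form wide plateaus and stay above the dashed lines on both sides out to the edge of the plot.

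The 3-hour origins in broad peaks were wider and less efficient than those in narrower peaks. The 2860 origins that met a broad peak were 12.1% of the 23608 autosomal origins. Their efficiency, a fraction between 0.8 and 1, had a median of 0.858 (interval 0.855 to 0.861), compared with 0.882 (interval 0.880 to 0.883) for the 18685 origins over narrower peaks only and 0.838 (interval 0.835 to 0.840) for the 2063 over no 2-4 kb peak. Origins over narrower peaks were themselves mixed. The median was 0.827 where the widest overlapping peak was under 500 bp, rose to 0.916 at 2-3 kb, and fell again to 0.907 at 3-4 kb and 0.885 at 4-5 kb. When the whole 3-hour list was ranked and split evenly into high, medium and low efficiency, 22.6% of origins in broad peaks were high, 37.8% medium and 39.7% low, whereas 37.4% of those over narrower peaks and 55.9% of those over peaks of 2-3 kb were high. The median efficiency was lower in broad than over narrower peaks on 19 of 22 autosomes, and the high share was lower on 20.

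**Figure D3:**
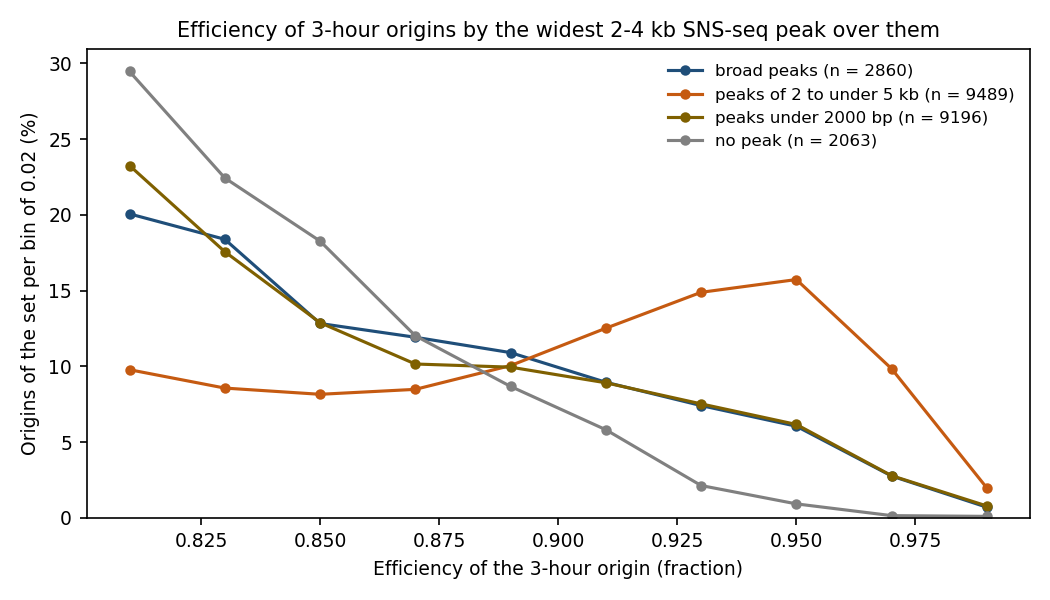
Distribution of the efficiency of 3-hour origins (horizontal axis, fraction, bins of 0.02) as a share of the origins of each set (vertical axis, %), with sets formed by the widest 2-4 kb SNS-seq peak over the origin. Points are bins joined by lines. Origins in broad peaks (n = 2860) are most frequent in the bin from 0.80 to 0.82 (20.1%), whereas those over peaks of 2 to under 5 kb (n = 9489) are most frequent between 0.94 and 0.96 (15.7%). The line of the 9196 origins over peaks under 2000 bp runs close to that of the broad peaks, with 23.3% in the lowest bin.

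Origins in broad peaks had a median width of 1400 bp, against 700 bp over all narrower peaks, and were wider on 21 of 22 autosomes. The narrower peaks were mixed, with medians of 1000, 1100 and 1200 bp over peaks of 2-3, 3-4 and 4-5 kb. Of the 185 origins of at least 5000 bp in the 3-hour list, 169 met a broad peak. The GC content of the origins was nearly equal to that over all narrower peaks together, with medians of 67.3% and 67.5%. Origins over peaks of 2-3, 3-4 and 4-5 kb had higher medians, of 69.4%, 69.25% and 68.1%. Within each of 10 GC groups of all autosomal origins the median efficiency was lower in broad peaks, with differences (broad minus narrower) between -0.0258 and -0.0015. It was also lower in each of 5 width groups, with a difference of -0.001 for origins from 300 to under 500 bp and of -0.0422 for those from 800 to under 1200 bp. Origins in broad peaks less often spanned a gene start, in 31.7% of cases against 40.9%. With a coding start in the origin the medians were 0.894 in broad peaks (n = 740) and 0.919 over narrower peaks (n = 6628), and with no start they were 0.843 (n = 1954) and 0.849 (n = 11047). The share also called at 15 minutes was 45.5% in broad peaks and 43.4% over narrower peaks, beside 39.9% of all autosomal 3-hour origins. The narrower peaks were mixed here too, with 63.7% over peaks of 2-3 kb, 64.1% at 3-4 kb and 53.7% at 4-5 kb, all above the share in broad peaks. The difference from all narrower peaks had the same direction on 13 of 22 autosomes, and within each of the 5 width groups it lay the other way, with 40.1% in broad peaks and 60.5% over narrower peaks for origins from 800 to under 1200 bp. Within the 10 GC groups the share was higher in broad peaks in 9, for example 36.9% against 27.6% for the group whose GC content starts at 66.0%.

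Origins within a broad peak differed in efficiency among themselves. In the 822 broad peaks with at least 2, the best exceeded the lowest by a median of 0.0467, with quartiles of 0.0222 and 0.0847 and a maximum of 0.194. Neighbouring origins in a broad peak were separated by a median gap of 1100 bp, 2850 bp from centre to centre. In 306 broad peaks exactly 1 of several origins held a coding gene start, and that origin was the most efficient in 204 (66.7%, interval 61.1 to 71.9), where the mean number of origins was 2.37. Nearly all origins in broad peaks, 96.0%, also had a 0.5-2 kb peak over them, which was close to the 96.5%, 97.1% and 96.3% of origins over peaks of 2-3, 3-4 and 4-5 kb. Per broad peak, the most efficient origin had a median of 0.882 and belonged to the high class in 578 cases (31.6%). This count was not made for other peaks, and a peak with several origins has more room for a high one. Per origin, the high share was 22.6% in broad peaks, 55.9% over peaks of 2-3 kb and 37.5% over peaks of 4-5 kb.

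Annotated gene starts (GENCODE 44) lay in 1103 broad peaks (60.3%), against 8.52% of all autosomal 2-4 kb peaks, 52.2% of peaks of 2-3 kb and 57.8% of peaks of 3-4 kb. Protein-coding starts lay in 912 (49.8%), close to the 50.2% of peaks of 3-4 kb and the 46.4% of peaks of 4-5 kb, and 191 held non-coding starts only. Of all 181905 autosomal peaks, 10915 held a coding start. In the central 1 kb, however, a start was found in 12.4% of broad peaks, 22.6% of peaks of 4-5 kb and 36.5% of peaks of 2-3 kb. It was rarer in broad peaks than in peaks of 2-3 kb on 22 of 22 autosomes. The remaining 727 broad peaks had no start. Of these, 541 lay wholly within gene bodies, 115 partly, and 71 (3.88% of all broad peaks) met no gene, compared with 8.85% of peaks of 2-3 kb, 5.05% of peaks of 4-5 kb and 27.8% of all peaks. Broad peaks were also long enough to hold whole genes. At least 1 entire protein-coding gene lay in 222 (12.1%), compared with 0.801% of peaks of 2-3 kb, 3.32% at 4-5 kb and 0.220% of all peaks. At least 2 coding starts lay in 161, some coding sequence in 1504 and coding 3' ends in 548. These 3 counts were not made for other peaks, and a longer peak has more room for each. Per kb, coding starts numbered 0.0823 in broad peaks, 0.117 at 4-5 kb and 0.0991 over all peaks. Coding 3' ends numbered 0.0604, 0.0404 and 0.0243. Coding sequence made up 13.5% of the bases of broad peaks, 11.2% at 4-5 kb, 9.10% at 2-3 kb and 7.81% over all peaks.

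In the 751 broad peaks with exactly 1 coding start, the peak reached further into the gene than upstream of it. The median was 2164 bp upstream and 4122 bp downstream, and 552 (73.5%, interval 70.2 to 76.6) had more of their length downstream. Peaks of 2-3 kb had nearly the same share, 75.1%, with medians of 965 and 1507 bp. The start lay nearer to an end than to the centre of the peak in 41.9% of broad peaks, compared with 24.2% in peaks of 2-3 kb. Broad peaks with a coding start differed from those with no start in the ini-seq 2 readouts. A 15-minute origin was found in 83.9% of the former and 37.4% of the latter, and a high class origin in 45.7% and 16.1%. The median efficiency of the best origin was 0.904 and 0.853. A 3-hour origin of any class was nonetheless present in 635 of the 727 broad peaks with no start.

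The genes whose starts lay in broad peaks were described by 10 lists. Of 19111 autosomal protein-coding genes, 1110 (5.81%) started in a broad peak, 31.9% in a peak of 2-5 kb, 26.9% in a narrower peak and 35.4% in none. Developmental transcription factor families, which set body axes and cell identity, had 55 of 202 starts (27.2%, interval 21.2 to 33.9) in broad peaks and 50.5% in peaks of 2-5 kb. Immediate early genes, which respond first to growth signals, had 10 of 38 (26.3%) in broad peaks and 60.5% in peaks of 2-5 kb. For WNT, FGF, BMP and TGF-beta ligands, secreted morphogens, the values were 15 of 69 (21.7%) and 29.0%. Of the G1/S cyclins, CDKs and E2F genes, regulators of entry into S phase that include CDK inhibitors, 5 of 31 (16.1%) started in broad peaks. A further 41.9% of them started in peaks of 2-5 kb. Zinc finger genes lay below the overall share, with 14 of 496 (2.82%). Genes of the DNA replication machinery were near it, with 3 of 54 (5.56%), and 53.7% of this list started in peaks under 2 kb. Only RPL8 of 79 cytosolic ribosomal protein genes started in a broad peak. No start of 69 replication-dependent histone genes, 55 keratin genes or 414 olfactory receptor genes did, which allows upper bounds of 5.21%, 6.49% and 0.887%. Of the non-coding genes, 488 of 18390 lncRNA genes (2.65%) and 100 of 1759 miRNA genes (5.69%) started in broad peaks, MIR200A, MIR200B and MIR429 among them. These counts were not tested.

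**Figure D4:**
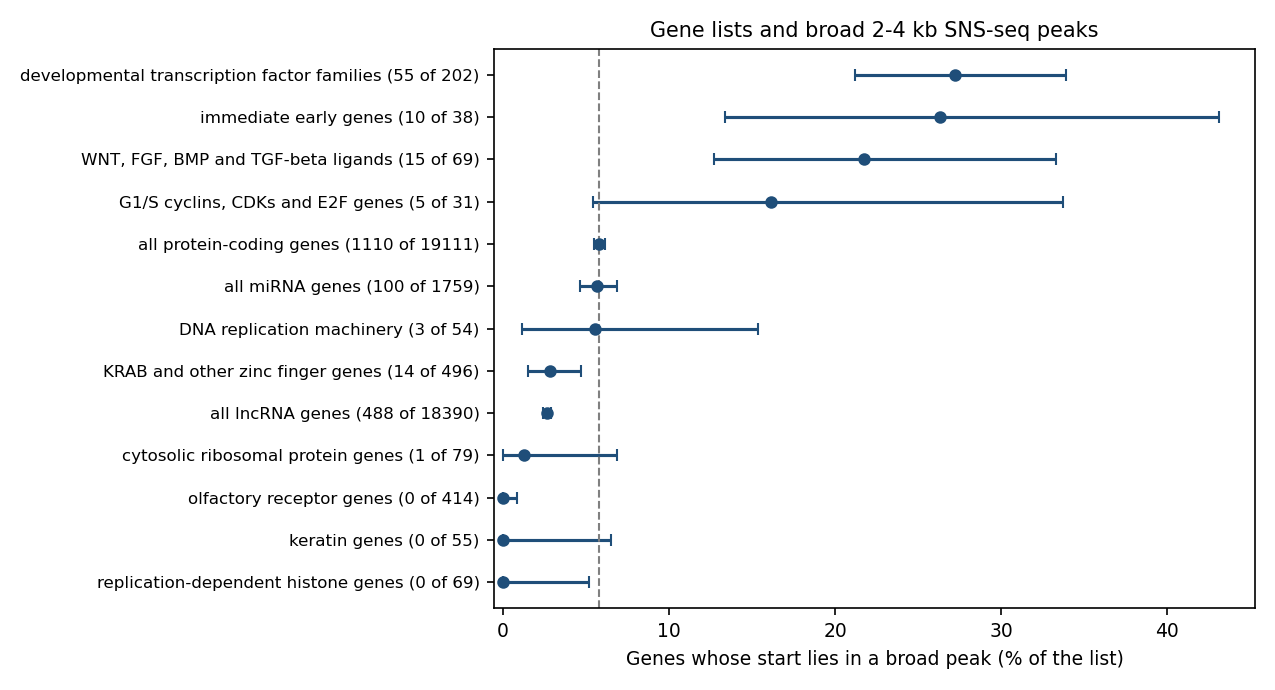
Share of the genes of each list whose annotated start lies in a broad peak (horizontal axis, %), with 95% Clopper-Pearson intervals as bars and the counts beside each name. The dashed line marks all protein-coding genes (5.81%), and the lists of developmental transcription factors (27.2%), immediate early genes (26.3%) and ligands (21.7%) lie to its right with their whole intervals.

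Among the developmental genes the widest broad peak lay over TBX1, a T-box factor of pharyngeal and heart development, on chr22:19752986-19768748. It measured 15763 bp, was 88.5% covered by 9 peaks of the small fraction, and held 6 origins of efficiency 0.844 to 0.926. It also met 3 origins of the 15-minute list. The peak over LHX3, a pituitary homeobox gene, measured 14066 bp and held 3 origins of 0.853 to 0.919. That over TBX2 measured 11542 bp, with 3 origins of 0.832 to 0.942. OTX1, a homeobox gene of the anterior brain, lay in a peak of 13216 bp with 2 origins of 0.895 and 0.911 and none at 15 minutes. The 54 broad peaks over developmental genes had a median CpG ratio of 0.649. It was 0.422 over all broad peaks and 0.476 over those with a coding start. Of the 54, 38 (70.4%) met a 15-minute origin and 47 (87.0%) a 3-hour origin. Over all broad peaks with a coding start these shares were 83.9% and 96.3%. Of the 10 broad peaks over immediate early genes, all met an origin at both times, which is near those shares, with a median best efficiency of 0.936. They included the JUN partner FOSL2 (6796 bp, 2 origins of 0.905 and 0.948), EGR3, a zinc finger factor (7078 bp, 1 origin of 0.958), IER5L (7704 bp, best 0.953) and ARC, a neuronal immediate early gene (5940 bp, 1 origin of 0.856).

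Broad peaks over cell cycle and ligand genes had median CpG ratios of 0.725 and 0.579, beside 0.476 over all broad peaks with a coding start. CCND1, which encodes cyclin D1, started in a peak of 8381 bp with 1 origin of 0.904, and CCND2 in a peak of 6787 bp with 1 origin of 0.898. The CDK inhibitors CDKN2D and CDKN1C started in peaks of 5697 and 5296 bp, with best efficiencies of 0.940 and 0.936. All 5 broad peaks of that list met a 15-minute origin, beside 83.9% of all broad peaks with a coding start. The morphogen FGF8 lay in a peak of 9558 bp with 1 origin of 0.876, WNT10A in 8986 bp with 2 of 0.881 and 0.920, GDF7 in 8530 bp with 1 of 0.971, and WNT7B in 7312 bp with 1 of 0.929. Of the replication genes, POLD1, the catalytic subunit of DNA polymerase delta, started in a peak of 9299 bp with 4 origins of 0.801 to 0.928, and CDT1, the licensing factor that loads the MCM helicase, in a peak of 5947 bp with 1 origin of 0.921. Among the zinc finger genes, ZNF503 had the widest peak (12779 bp, 4 origins, best 0.929), followed by ZNF598 (10005 bp, best 0.898), ZNF34 (7710 bp, best 0.917, shared with RPL8) and ZNF524 (7228 bp, best 0.922).

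Broad peaks were GC-rich over their whole length. The median GC content was 62.7% (interval 62.5 to 62.8), against 59.7% to 61.1% in peaks of 2-5 kb and 56.1% over all autosomal peaks, and it rose to 64.8% in broad peaks of 10 kb or more. In the central 1 kb the median was 64.2%, close to the 64.4% of peaks of 2-3 kb. The 10 kb flanks on both sides had a median of 55.2%. For peaks of 4-5 kb it was 52.5%, for peaks of 2-3 kb 48.4%, and over all autosomal peaks 49.4%. Against peaks of 2-5 kb, CpG content was lower in broad peaks. Over whole peaks the median observed over expected CpG ratio was 0.422, against 0.462 at 4-5 kb and 0.568 at 2-3 kb. In the central 1 kb the median ratio was 0.409 (interval 0.397 to 0.430) in broad peaks and 0.571 in peaks of 4-5 kb. It was 0.660 in peaks of 2-3 kb and 0.285 over all autosomal peaks. In broad peaks this central ratio was lower than in peaks of 2-3 kb on 20 of 22 autosomes. The composition of a CpG island was taken as a central 1 kb with a GC content above 50% and a CpG ratio above 0.6. It was found in 29.3% of broad peaks, 46.5% of peaks of 4-5 kb, 56.0% of peaks of 2-3 kb and 8.75% of all autosomal peaks.

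In coding starts, 15-minute origins and best efficiency, the CpG ratio of the whole peak separated broad peaks more clearly than GC content did. With broad peaks ranked by CpG ratio and split into 4 groups of equal number, from the lowest to the highest, the share with a coding start was 24.7%, 43.1%, 53.8% and 77.7%, and the share with a 15-minute origin was 29.3%, 62.1%, 72.9% and 82.3%. The median efficiency of the best origin was 0.840, 0.867, 0.894 and 0.919. Gene starts, 15-minute origins and efficiency thus went up together. In 4 such groups by GC content the same efficiency was 0.903, 0.883, 0.867 and 0.874, and the share with a 15-minute origin was 61.1%, 60.6%, 55.4% and 69.4%. Coverage by 0.5-2 kb peaks, in contrast, rose with GC content, from 54.1% to 77.3%. The share with a 3-hour origin rose with it too, from 88.2% to 97.8%. Over the CpG groups that share was 84.3%, 95.6%, 94.7% and 94.1%. Peak width also rose with GC content, from a median of 5746 to 7622 bp, so that the GC groups were not alike in width.

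The 3 widest peaks each held several gene starts. The widest of all, chr8:144495703-144531292, spanned 35590 bp and held the starts of GPT (an alanine aminotransferase), MFSD3, RECQL4 (a DNA helicase that acts in replication initiation), LRRC14, LRRC24 and C8orf82. Its 8 origins had efficiencies of 0.827, 0.933, 0.861, 0.831, 0.911, 0.895, 0.952 and 0.892 from left to right. The most efficient was not at either end, and the peak met 6 origins of the 15-minute list. It overlapped 17 small-fraction peaks, which covered 91.4% of it, and 35.1% of its bases were coding. The second, chr14:105462809-105494908 (32100 bp), lay over the LIM domain genes CRIP2 and CRIP1 and over TEDC1, and ran into MTA1, a chromatin remodelling subunit gene. It held only 3 origins of 0.846, 0.840 and 0.866, but these were so long that they covered 88.5% of the peak. The third, chr16:543057-571063 (28007 bp), over PRR35, PIGQ (which acts in GPI anchor synthesis) and NHLRC4, had the most origins, 9, of 0.862 to 0.952 and together 44.3% of its length.

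**Figure D5:**
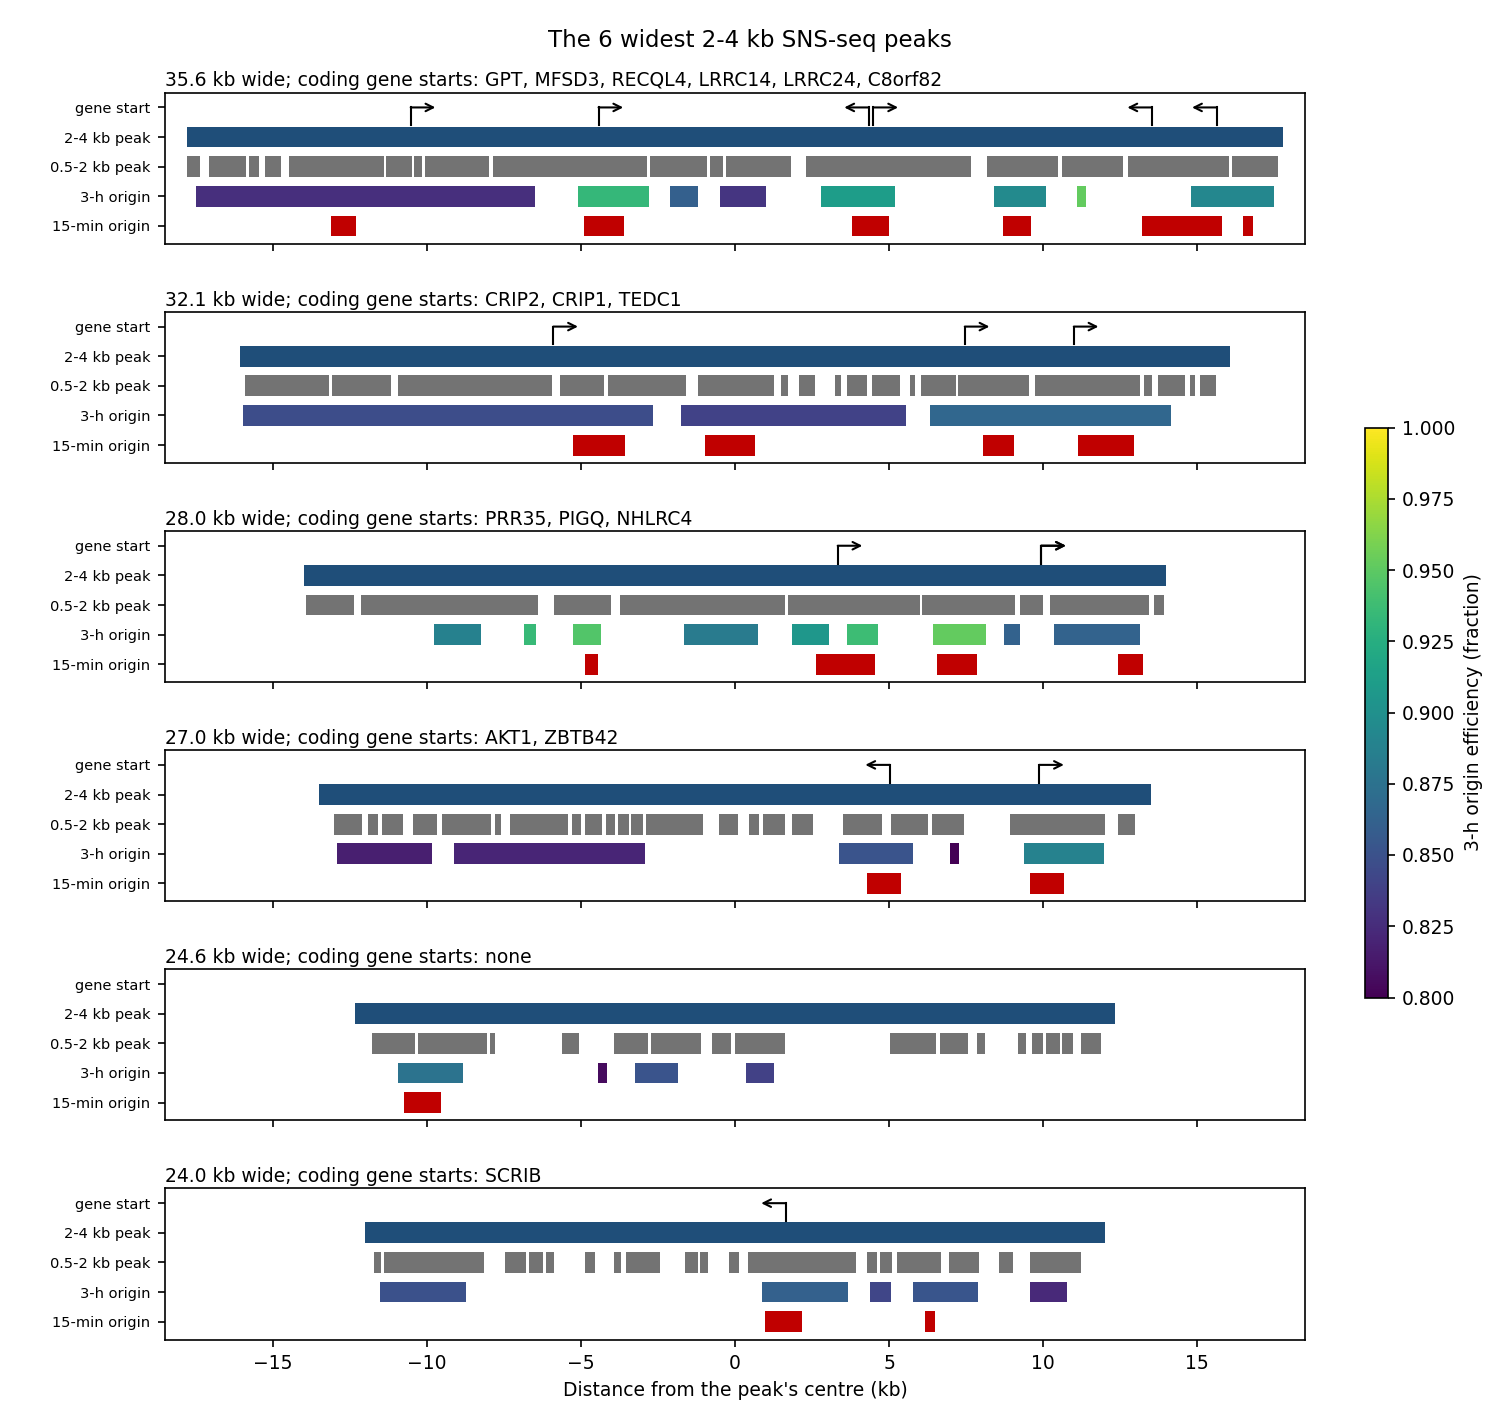
The 6 widest broad peaks to scale, by distance from the peak's centre in kb (horizontal axis), with the 0.5-2 kb peaks, 3-hour origins (colour gives the efficiency, a fraction from 0.8 to 1), 15-minute origins and protein-coding gene starts with their direction (arrows). The widest peak (35.6 kb) holds 8 origins at 3 hours and the second (32.1 kb) 3 long ones, while the 0.5-2 kb peaks run along most of both.

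The next peaks varied in the same ways. The peak of 27015 bp over AKT1, a kinase of growth factor signalling, and ZBTB42 had the most small-fraction peaks, 22, and 5 origins of 0.801 to 0.888. A peak of 24648 bp lay wholly in AGAP3 and held no gene start, with 4 origins of 0.806 to 0.876. At SCRIB, a cell polarity gene, a peak of 24019 bp held 5 origins of 0.823 to 0.862. The origins were more efficient in a pair of chromosome 16 peaks. The peak of 23403 bp over RHOT2, RHBDL1, STUB1 (a ubiquitin ligase) and JMJD8 had 4 origins of 0.902 to 0.953, 3 of them in the high class, and the peak of 22944 bp over CHTF18, a subunit of a clamp loader of the replication fork, had 4 of 0.855 to 0.954. The last 2 of the 10 widest held no high class origin and met no 15-minute origin. The peak of 22226 bp in BRSK2, a kinase gene, held 5 origins of 0.813 to 0.863 over 78.3% of its length, and the peak of 22157 bp in GPSM1, a G-protein signalling modulator gene, 7 origins of 0.807 to 0.847 over 73.1%. Neither peak contained a gene start. The other peaks with most origins were chr19:1002504-1018750 over GRIN3B and TMEM259 (7 origins, 0.808 to 0.941) and chr16:1204955-1226080 over CACNA1H and TPSG1 (6 origins, 0.835 to 0.934, none at 15 minutes). A second peak in CACNA1H, a calcium channel gene, of 20089 bp, met 18 small-fraction peaks but 2 origins, of 0.821 and 0.831.

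The 5 broad peaks with the most efficient origins measured between 6483 and 13712 bp. A single origin in a broad peak had an efficiency of 1, in the peak of 6483 bp at GRID1, a glutamate receptor gene. The same peak held 2 others, of 0.930 and 0.806. The start of GRID1 lies in the peak, and the sequence beside it is the one with 24 CpG dinucleotides shown above. It was followed by a peak of 6937 bp inside CIC, a transcriptional repressor gene, with 0.997 and 0.907, by one of 10676 bp at NAT8L, the enzyme that makes N-acetylaspartate, with 0.996, 0.853 and 0.848, by one of 9036 bp at WDR90 with a single origin of 0.992, and by one of 13712 bp across TRAF7 and CASKIN1 with 0.991, 0.944 and 0.858. In 3 of these 5 peaks an origin near 1 thus stood beside origins under 0.86.

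Of the 143 broad peaks without a 3-hour origin, 19 had a 15-minute origin and 86 had a 3-hour origin within 5 kb, at a median distance over all of 3889 bp. They were somewhat narrower (median 5710 bp) and had a GC content of 61.6%, a CpG ratio of 0.353 and coding starts in 23.8%, but met as many 0.5-2 kb peaks (median 4), which covered 53.1% of their bases. The widest with no origin at either time lay over SOX8 (9981 bp, 81.9% covered by 6 small-fraction peaks), a transcription factor gene, and its sequence above shows a G4 motif. It was followed by peaks in SLC12A7, a potassium-chloride cotransporter gene (9934 bp, 47.7% covered), across RHBDF2 and AANAT (9495 bp, 36.7%), in PLXNA1, a semaphorin receptor gene (9072 bp, 63.3%), and in TSNARE1 (8782 bp, 52.0%). Broad peaks with no annotated gene did hold origins. The widest, chr16:1116091-1135354 (19264 bp), met 5 in the list of each time, with 3-hour efficiencies of 0.821, 0.844, 0.819, 0.906 and 0.929. Only the 3-hour origins of 0.844 and 0.819 overlapped a 15-minute origin. The peaks on chr14:105192727-105206217 (13491 bp) and chr10:132455080-132468420 (13341 bp) had 4 of 0.810 to 0.890 and 3 of 0.811 to 0.826, and neither met a 15-minute origin. The next, on chr22:19727422-19740241 (12820 bp), lies beside the TBX1 peak and had 2 origins of 0.809 and 0.840, and the last, chr17:79807359-79817596 (10238 bp), 3 of 0.847 to 0.879.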

How the data were processed

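Position lists of 4 of the 5 EJ30 samples were analysed, and the genomic DNA library was not used. The authors aligned reads to hg38 with Bowtie2, kept unique alignments and removed duplicates. Ini-seq 2 origins came from a custom caller of the authors that compared library-normalised HL and LL reads per 100 bp window, required a log2 ratio no lower than 2, and merged windows up to 500 bp apart. The value the authors deposited at 3 hours is the fraction HL/(HL + LL), which is never under 0.8, although its header reads Z-score, and that list pools 2 biological replicates. The value the authors deposited at 15 minutes is a Z-score, a centred and scaled score. Peaks of both SNS-seq fractions are MACS2 calls of the authors, deposited as positions only, and were read as BED intervals. The lists hold no counts, so the depth behind a single value is not known from them.

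Broad peaks were autosomal 2-4 kb peaks of at least 5000 bp. Overlap means at least 1 bp. Genes are those of GENCODE 44, and efficiency classes are 3 equal parts of the 3-hour list. No test was run, since each condition is 1 list. The members, gene lists and comparisons were chosen with earlier results of these data known. Named were the 10 widest members, the 5 with most 3-hour origins, with most 0.5-2 kb peaks, with the highest efficiency, and the widest with no origin or no gene, the 3 peaks on either side of the minimum width, their genes, and up to 4 genes per list in the widest members. Overlap counting was checked on simulated intervals. Python 3.11.15, pandas 2.3.3, scipy 1.17.1 and pysam 0.24.0 were used.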

Additional observations from a re-analysis of the deposited data

How the results depend on the processing

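No paired analysis was possible because each condition is a single list with no replicate columns. Leaving out members that are mostly soft-masked repeats was not run, since the genome sequence used here carries no masking. Of 58 alternative values, 21 stayed within the interval of the reported value and 37 moved. Read on chromosomes 1 to 22, X and Y (1852 peaks) and without chromosome 19, results kept to their intervals except small-fraction coverage (64.3% and 64.0% of bases). The interval of this coverage took each base as a separate unit. It is therefore far too narrow, and its moves in the count of 37 say little. With minimum widths of 4000 and 7000 bp, the share with a 3-hour origin was 88.9% and 95.9%, with a 15-minute origin 58.6% and 68.5%, the median number of 0.5-2 kb peaks 3 and 6, their coverage 62.3% and 68.8%, the median efficiency 0.866 and 0.850, the high share 27.8% and 18.2%, and the median GC content 61.9% and 63.6%. The share with a gene start was 66.6% at 7000 bp. Joining 2-4 kb peaks within 500 bp gave 5323 broad regions, of which 86.8% had a 3-hour origin, 57.8% a 15-minute origin and 62.8% a gene start, with 45.6% of bases covered by 0.5-2 kb peaks, a median efficiency of 0.865, a high share of 28.3% and a GC content of 59.0%. Counting origins within 5 kb gave shares of 96.9% (3 hours) and 70.8% (15 minutes), a median efficiency of 0.852 and a high share of 20.5%. Restricted to origins of at least 0.9, the share with a 3-hour origin was 35.4%, the median 0.930 and the high share 87.2%, by construction. The central 1 kb gave 65.9% (3 hours), 27.7% (15 minutes), 12.4% (gene start) and 64.2% GC. Protein-coding starts alone gave 49.8%, and starts within 1 kb 64.3%. The median efficiency stayed below that of origins over other 2-4 kb peaks under all 5 changes of the member set. The cause of the moves was not tested. Without counts or replicates, differences of a few percent cannot be judged against experimental error.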
